A study of Homo sapiens with 6 samples.

Results

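Caspases are proteases that carry out programmed cell death, and 8 genes of this machinery were followed in HCT116 cells, a human colorectal carcinoma line: the caspase genes CASP2, CASP4, CASP6, CASP8, CASP9 and CASP10, the scaffold gene APAF1 and the inhibitor gene XIAP. They were taken by gene symbol, and all 8 were found among the 58735 genes of the expression table. The comparison was between 3 RNA-seq libraries from a control transfection (CTR) and 3 from transfection with miR-8485 mimics at 50 nM, a synthetic copy of the mature miRNA, collected 48 h after transfection. The labels describe the libraries as independent biological replicates and give the genotype of the CTR cells as WT, and the dose and sequence of the control are not given in the sources used here. The transfection addresses what the miRNA does to the transcriptome of colorectal cancer cells.

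Apoptosis can start at the cell surface or at the mitochondria. Ligated death receptors gather adaptor proteins on which caspase-8 and caspase-10 are activated, whereas cytochrome c leaving the mitochondria makes APAF1 assemble into the apoptosome, the wheel on which caspase-9 is activated. These initiators set off the executioners, to which caspase-6 belongs, and XIAP can hold back caspase-9. Caspase-2 is activated on another platform, the PIDDosome, and caspase-4, an inflammatory caspase, senses bacterial lipopolysaccharide and cuts gasdermin D. Caspases are made as inactive precursors, so mRNA levels do not report their cleavage or activity.

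A miRNA recognizes mRNAs mainly through its seed, bases 2 to 8, shown in capitals in the mimic, which pair with TGTGTGT in a 3′ UTR.
miR-8485 mimic: cACACACAcacacguau
Of the 8 genes, 7 held no copy of TGTGTGT in the 3′ UTR of the transcript that GENCODE release 44 tags as canonical, and CASP10 held 1. Among all 10672 tested genes with such a 3′ UTR, 28.9% held at least 1 copy. The XIAP 3′ UTR is 6791 bases long and had none, where 70.9% of the 453 tested genes with a 3′ UTR of like length (shorter to longer at a ratio of at least 0.8) held the word. The 3′ UTRs of APAF1 (2867 bases) and CASP2 (2625 bases) also had none, against 47.2% and 45.5% of the tested genes of like length. Which 3′ UTRs these cells use was not measured, and other ways of pairing were not searched. The CASP10 match, on the plus strand at chr2:201218439-201218461 of hg38, is shown with example matches in partner genes of the pathway described below. The examples are CFLAR (plus strand, chr2:201170029-201170051, 1 of 2 copies), MAP3K7 (minus strand, chr6:90513747-90513769, 1 of 3 copies) and GSN (plus strand, chr9:121332693-121332715, in a run of 20 alternating bases with 7 overlapping copies). Other listed genes also held the word, such as DFFA (1 copy, called higher) and LMNB1 (1 copy, called lower). BIRC5 (1 copy) and TNFRSF10B (2 copies) held it too and were not past the threshold. FASLG held the most copies of all listed genes, 13 that overlap, but had at most 3 fragments in any library. Whether the word went with a change in level was not tested. Capitals mark the word on the mRNA strand.
CASP10: actacaggTGTGTGTccatgcac
CFLAR: tgtggaagTGTGTGTggctattc
MAP3K7: tctataaaTGTGTGTggttttca
GSN: gctatgagTGTGTGTgtgtgtgt

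**Figure D1:**
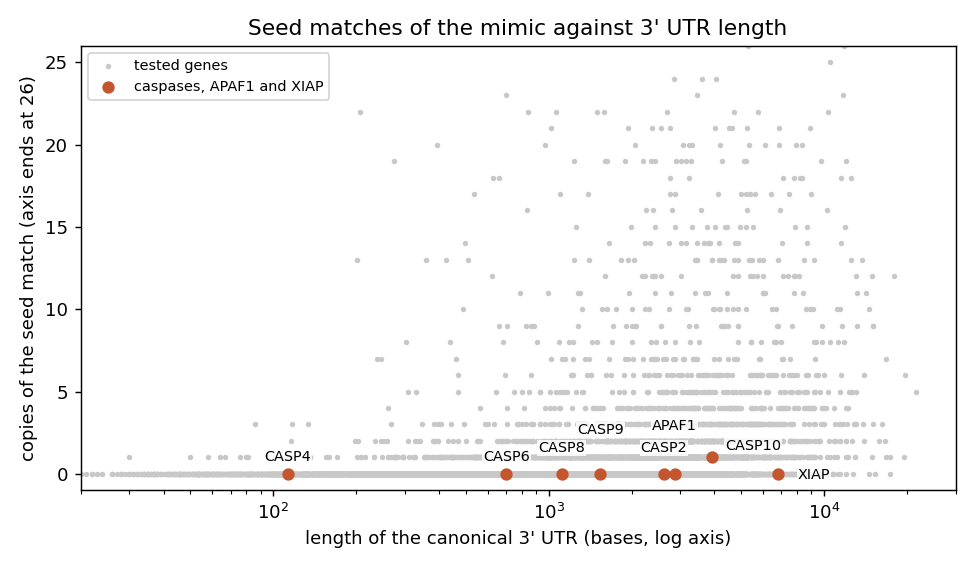
Copies of the word that pairs with the seed of the mimic (vertical axis, 15 tested genes above its end are not drawn) against the length of the canonical 3′ UTR (horizontal log axis), with tested genes in grey and the 8 genes in orange. XIAP has the longest 3′ UTR of the 8, with 0 copies, and CASP10 alone holds 1.

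The libraries held 17473874 to 18480047 fragments on listed genes. The chi-square per gene between 2 libraries, near 1 under sampling noise alone, ranged from 2.75 to 10.5 in the 6 pairs of like libraries, the values above 3.87 being those of CTR replicate 1 with the other CTR libraries, and from 61.0 to 70.3 in the 9 pairs of unlike ones. MIR8485 itself was listed at 0 in all 6 libraries, and the level of the mimic was not measured. Of 9 markers of colorectal epithelium, 7 had a mean of at least 1 FPKM (fragments scaled to gene length and to the fragments of the library), and VIL1 and CDX1 did not. The summed level of the 9 markers was 2614 to 2839 FPKM in CTR and 1753 to 1840 FPKM in miR-8485, and the part of this difference in the results was not tested. The fall of the sum came from KRT8, KRT18 and KRT19, while CDX2 and KRT20 were called higher (log2 fold changes 0.81 and 1.33, limma adjusted p = 1.4e-05 and 0.00578) and EPCAM and CDH1 were not past the threshold (both -0.05). All 4 leukocyte and 3 endothelial markers, and 3 of 4 fibroblast markers, were below 1 FPKM, COL1A1 being the exception, and the summed fibroblast level was 4.09 to 4.41 FPKM in CTR and 6.29 to 6.43 FPKM in miR-8485, whose part in the results was not tested either.

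Expression was tested with limma on log2(FPKM + 0.1) for the 12349 genes with a mean of at least 1 FPKM, with Benjamini-Hochberg adjustment over all of them and a threshold of 0.05. CASP8, CASP9 and CASP6 were upregulated and APAF1 and XIAP were downregulated in the miR-8485 libraries, while CASP2 and CASP4 were not past the threshold and CASP10 lay below 1 FPKM. Thus 5 of the 7 tested genes were called (71.4%), against 59.6% of all tested genes in either direction, 29.1% higher and 30.5% lower. The miR-8485 libraries lay wholly above or below the CTR libraries for 6 of the 7 genes (3 above and 3 below), against 66.5% of all tested genes, 32.5% above and 34% below. With so large a share of the transcriptome called, these counts alone do not set the group apart. The median absolute log2 fold change of the called genes of the whole table was 0.50, which is near that of CASP6, while APAF1 was above it and XIAP below it. Rescaling to TPM, which equalizes the summed length-corrected values, shifted the median over all tested genes, in log2 fold change, from -0.0041 to -0.12 and the calls from 3593 higher and 3769 lower to 2613 higher and 4725 lower. All fold changes refer to the FPKM scale unless TPM is named.

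**Figure D2:**
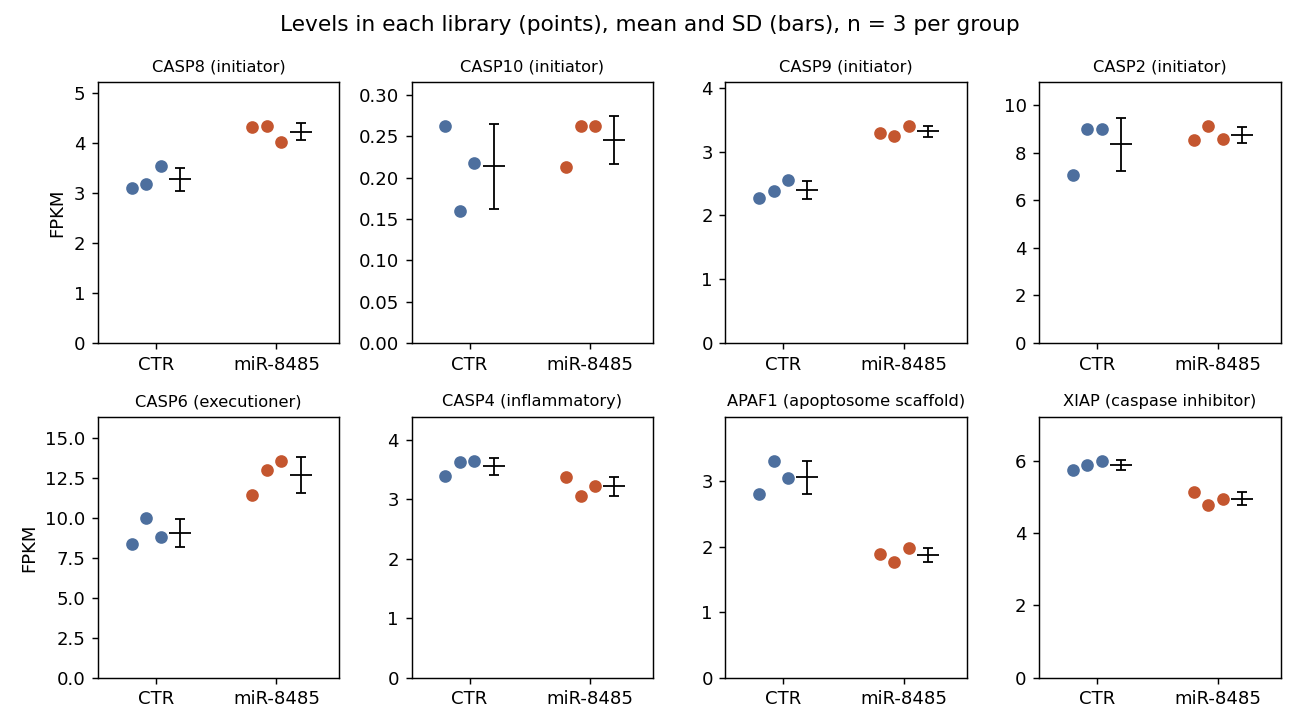
FPKM (vertical axes, each from 0) of the 8 genes in the 3 CTR (blue) and 3 miR-8485 (orange) libraries, with the mean and SD (n = 3) as bars. The groups are apart for CASP8, CASP9 and CASP6, which are higher in miR-8485, and for APAF1, XIAP and, by a narrow margin, CASP4, which are lower, whereas those of CASP2 and CASP10 overlap.

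CASP8, the initiator of the death receptor route (ENSG00000064012, chromosome 2, 201233443 to 201287711, plus strand), was upregulated. Its levels were 3.10, 3.18 and 3.54 FPKM in CTR replicates 1 to 3 and 4.32, 4.35 and 4.03 FPKM in miR-8485 replicates 1 to 3. Every miR-8485 library was therefore above every CTR library. In such bulk samples, more cells with the transcript and more RNA per cell cannot be told apart. The means were 3.27 ± 0.233 FPKM (SD, n = 3) and 4.23 ± 0.177 FPKM (SD, n = 3), which is 0.36 as log2 fold change (limma adjusted p = 0.00469, standard error 0.08). The value stayed between 0.25 and 0.45 under the other settings, the lowest being that after rescaling to TPM. In GENCODE, 4.7% of the exonic bases of CASP8 are shared with another gene of the same strand, to which the counting could have assigned fragments differently.

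CASP10, the other caspase of the death receptor complex (ENSG00000003400), lies beside CASP8 on chromosome 2 (201182881 to 201229406, plus strand) and was far less abundant. It had 0.263, 0.160 and 0.218 FPKM in CTR and 0.213, 0.262 and 0.263 FPKM in miR-8485, that is 22 to 38 fragments per library, and the groups overlapped. In the fit of all 31768 genes above 0, its log2 fold change was 0.15 with a 95% interval from -0.59 to 0.89 (limma adjusted p = 0.776). The interval holds both a fall and a rise, so the direction is undetermined. The only gene of the group with a seed match was thus also the one measured least precisely.

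Of the receptors and adaptors upstream of CASP8, some were called higher and others lower. Among all tested genes, 59.6% were called. Of 10 death receptor and ligand genes, 7 were tested, with 1 higher, 1 lower and 5 not past the threshold, and the median log2 fold change was -0.14. TNFRSF1A, the main receptor of tumor necrosis factor, fell from 30.4 ± 1.07 to 17.9 ± 0.742 FPKM (SD, n = 3), which is -0.76 as log2 fold change (limma adjusted p = 2.0e-05, standard error 0.05). TNFRSF25, another death domain receptor, rose by 0.28 on the log2 scale (limma adjusted p = 0.00484), a call that was lost after rescaling to TPM (0.17, adjusted p = 0.0639). Of 8 genes of the receptor complex, 6 were tested, with 1 higher, 3 lower and 2 not past the threshold (median -0.17). TRADD, the adaptor that docks on TNFRSF1A, rose from 8.87 ± 0.289 to 16.6 ± 2.08 FPKM (SD, n = 3), which is 0.89 as log2 fold change (limma adjusted p = 1.5e-04). The kinase gene RIPK1 fell by 0.29 and CASP8AP2, named for its binding to caspase-8, by 0.59 on the log2 scale (limma adjusted p = 0.00382 and 0.0042). TNFRSF1A and its adaptor TRADD thus moved in opposite directions.

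FADD, the adaptor that recruits caspase-8 and caspase-10, had 6.44 ± 0.799 FPKM in CTR and 7.88 ± 1.14 FPKM in miR-8485 (SD, n = 3) and was not past the threshold (log2 fold change 0.28, standard error 0.12, limma adjusted p = 0.0822), though it was called in voom (0.30, adjusted p = 0.0489) and with the replicate number as a block (adjusted p = 0.0224). Of its exonic bases, 59.2% are covered by a gene on the opposite strand, and the sources used here do not say whether fragments were counted by strand. CFLAR, whose product c-FLIP blocks caspase-8 in the complex, had 0.860 ± 0.0747 FPKM in CTR and 1.10 ± 0.0126 FPKM in miR-8485 (SD, n = 3). Its mean was just under 1 FPKM over a gene length of 22529 bases, though it had 316 to 371 fragments per CTR library and 444 to 469 per miR-8485 library. The groups did not overlap. In the fit of all genes above 0 the log2 fold change of 0.33 was not past the threshold (95% interval -0.03 to 0.69, limma adjusted p = 0.2). By contrast, voom, limma's test for counts, called it on the recovered fragments (0.36, adjusted p = 0.00876). CASP8 and CFLAR thus both had higher means in miR-8485.

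CASP9, the initiator of the mitochondrial route (ENSG00000132906, chromosome 1, 15490832 to 15526534, minus strand), was upregulated, whereas APAF1, the scaffold that activates its product, was downregulated. CASP9 had 2.27, 2.38 and 2.56 FPKM in CTR and 3.30, 3.25 and 3.41 FPKM in miR-8485, with no overlap between the groups. From 2.40 ± 0.144 to 3.32 ± 0.0799 FPKM (SD, n = 3), its rise was 0.45 in log2 fold change (standard error 0.08, limma adjusted p = 0.00194). It lay between 0.34 and 0.49 under the other settings and kept the call in each of those in which it was tested.

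APAF1 (ENSG00000120868, chromosome 12, 98645141 to 98735433, plus strand) showed the largest change of the 8 genes. Its levels were 2.81, 3.31 and 3.05 FPKM in CTR and 1.88, 1.77 and 1.99 FPKM in miR-8485, so that the highest miR-8485 library was well below the lowest CTR library. The mean fell from 3.06 ± 0.254 to 1.88 ± 0.108 FPKM (SD, n = 3), which is -0.67 as log2 fold change (limma adjusted p = 7.9e-04, standard error 0.10). In fragments, it had 400 to 474 per CTR library and 253 to 299 per miR-8485 library. The value stayed between -0.80 and -0.49 under the other settings. In GENCODE, 9.7% of its exonic bases are covered by ANKS1B on the opposite strand.

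The factors that leave the mitochondria were higher or not past the threshold. Of 5 genes, 4 were tested, with 3 higher, 0 lower and 1 not past the threshold, and the median log2 fold change was 0.53, against -0.0041 over all tested genes, of which 59.6% were called. At an unadjusted p under 0.05 in limma, and in voom on recovered fragments, 0 of them were lower as well, whereas CYCS was called lower after rescaling to TPM (-0.19, adjusted p = 0.0428). HTRA2, a protease that also antagonizes XIAP, rose from 6.62 ± 0.943 to 11.1 ± 0.363 FPKM (SD, n = 3), which is 0.74 as log2 fold change (limma adjusted p = 4.5e-04). ENDOG, a nuclease, rose by 0.73 and AIFM1, a flavoprotein linked to caspase-independent death, by 0.33 on the log2 scale (limma adjusted p = 0.00103 and 7.4e-04). For HTRA2 and ENDOG, 32.3% and 40.1% of the exonic bases are covered by genes on the opposite strand. CYCS, the gene of cytochrome c and the ligand of APAF1, had 62.8 ± 4.21 FPKM in CTR and 59.5 ± 1.78 FPKM in miR-8485 (SD, n = 3), a log2 fold change of -0.08 with a 95% interval from -0.21 to 0.06 (limma adjusted p = 0.282). DIABLO, the other antagonist of XIAP, is listed under 2 overlapping identifiers, both below 1 FPKM. In GENCODE, 93.2% of the exonic bases of one and 31.5% of the other are shared with genes of the same strand, so its level could not be read from this table.

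On a list of 9 genes drawn up around the apoptosome, 8 were tested, with 1 higher, 4 lower and 3 not past the threshold (median -0.19). Not all of them, for example AATF, act on the apoptosome directly. AVEN, which binds APAF1 and restrains it, rose from 4.52 ± 0.245 to 6.43 ± 0.451 FPKM (SD, n = 3), which is 0.50 as log2 fold change (limma adjusted p = 8.2e-04). PTMA, the gene of prothymosin alpha, an inhibitor of apoptosome formation, fell from 614 ± 4.87 to 443 ± 4.33 FPKM (SD, n = 3), which is -0.47 as log2 fold change (limma adjusted p = 4.1e-05). AATF, a nuclear protein with antiapoptotic activity, fell by 0.47 as well (limma adjusted p = 4.5e-04). The inhibitors AVEN and PTMA thus moved in opposite directions. PTMA, like CYCS and KRT18, has many processed pseudogenes in the genome, and how fragments fitting several of them were counted is not given in the sources used here, so these levels are uncertain.

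CASP2 (ENSG00000106144, chromosome 7, 143288215 to 143307696, plus strand) showed no change past the threshold. It had 7.08, 8.98 and 8.98 FPKM in CTR and 8.54, 9.13 and 8.58 FPKM in miR-8485, so only CTR replicate 1 stood below the rest. The log2 fold change was 0.08 with a 95% interval from -0.15 to 0.30 (limma adjusted p = 0.53), and it was -0.038 without CTR replicate 1 and -0.039 after rescaling to TPM. The direction is therefore undetermined. Of the genes of its PIDDosome platform, both tested, PIDD1 fell from 10.5 ± 1.35 to 8.26 ± 0.892 FPKM (SD, n = 3) with a log2 fold change of -0.34 (limma adjusted p = 0.0293). Its groups overlapped, and the call was lost when CTR replicate 1 or 2, or miR-8485 replicate 2 or 3, was left out (adjusted p = 0.0735, 0.0599, 0.0853 and 0.0914). It was also lost with no filter (adjusted p = 0.0874), quantile normalization (0.058), the length trend removed (0.0584) and no variance trend (0.0502). CRADD, the adaptor between PIDD1 and caspase-2, had 1.54 ± 0.149 FPKM in CTR and 1.99 ± 0.219 FPKM in miR-8485 (SD, n = 3), a log2 fold change of 0.35 that just missed the threshold (limma adjusted p = 0.0518). It was called in voom (0.0354), with no variance trend (0.0285), the length trend removed (0.0456), median-of-ratios scaling (0.0474), a pseudocount of 0.01 (0.0499) or without CTR replicate 2 (0.0495), and at an unadjusted p under 0.05. The median over both genes was 0.0046.

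CASP6, an executioner that cleaves lamin A (ENSG00000138794, chromosome 4, 109688622 to 109703583, minus strand), was upregulated and had the highest mean FPKM of the 8 genes in both groups. It had 8.36, 9.99 and 8.76 FPKM in CTR and 11.4, 13.0 and 13.6 FPKM in miR-8485. The lowest miR-8485 library was above the highest CTR library. The mean rose from 9.04 ± 0.846 to 12.7 ± 1.10 FPKM (SD, n = 3), which is 0.48 as log2 fold change (limma adjusted p = 0.00247, standard error 0.09), with values between 0.34 and 0.56 under the other settings. The lowest was that with the trend against gene length removed, CASP6 being shorter than most genes, with only 17.1% of tested genes shorter still.

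Of 4 further caspase genes on the lists, none was tested. CASP5 and CASP12 had 0 fragments in all 6 libraries, which allows at most 0.105 and 0.0935 FPKM in any library, and CASP1 and CASP14 were below 0.1 FPKM in each library.

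Of 14 genes whose proteins are known caspase substrates, all tested, 2 were higher, 8 lower and 4 not past the threshold, with a median log2 fold change of -0.23, against 29.1% higher and 30.5% lower among all tested genes. GSN, the gene of the actin-severing gelsolin, fell from 13.0 ± 0.878 to 1.18 ± 0.108 FPKM (SD, n = 3), which is -3.35 as log2 fold change (limma adjusted p = 8.9e-07). KRT18, an epithelial keratin, fell from 572 ± 35.0 to 292 ± 5.61 FPKM (SD, n = 3), which is -0.97 as log2 fold change (limma adjusted p = 9.6e-06). KRT18 is also 1 of the 9 epithelial markers, and 17.1% of its exonic bases are covered by KRT8 on the opposite strand. LMNA, which encodes the lamin that caspase-6 cleaves, fell by 0.44 on the log2 scale (limma adjusted p = 1.3e-04). DFFA, the gene of the inhibitor of the caspase-activated DNase, rose from 13.2 ± 1.09 to 23.6 ± 0.577 FPKM (SD, n = 3), which is 0.83 as log2 fold change (limma adjusted p = 4.1e-05). CASP6 and the lamin gene LMNA thus moved in opposite directions at the mRNA level.

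CASP4, the inflammatory caspase of the group (ENSG00000196954, chromosome 11, 104942866 to 104969436, minus strand), was not past the threshold. It had 3.39, 3.63 and 3.66 FPKM in CTR and 3.38, 3.06 and 3.23 FPKM in miR-8485. The miR-8485 libraries were all lower, but the nearest pair was almost equal. The log2 fold change was -0.14 (standard error 0.07, 95% interval -0.31 to 0.03, limma adjusted p = 0.138), and it was called only after rescaling to TPM (-0.26, adjusted p = 0.0184). Of 12 genes of this pathway, 3 were tested, with 2 higher, 0 lower and 1 not past the threshold (median 0.24), and 9 were below 1 FPKM. At an unadjusted p under 0.05 in limma, and in voom, 0 of the 3 were lower as well, but NINJ1, which acts in membrane rupture, was called lower with the length or GC trend removed. Of the genes below 1 FPKM, GBP2, a guanylate-binding protein, was called lower in the fit of all genes above 0, in which 22.1% of genes were called (-1.32, limma adjusted p = 0.0326). It had 22 to 38 fragments per CTR library and 2 to 9 per miR-8485 library, and the call was lost without CTR replicate 1 or 2 or miR-8485 replicate 2 or 3 (adjusted p = 0.0624, 0.061, 0.0799 and 0.0731), with a pseudocount of 0.01 (0.0622) and with the replicate block (0.0663). IL18, the gene of a cytokine matured by inflammatory caspases, rose from 50.9 ± 3.82 to 67.0 ± 3.30 FPKM (SD, n = 3), which is 0.40 as log2 fold change (limma adjusted p = 0.00137). GSDMD, the gene of the pore-forming gasdermin D, rose by 0.24 (limma adjusted p = 0.0249). That call was lost after rescaling to TPM, with the GC trend removed, with no filter, and without CTR replicate 3 (0.17, adjusted p = 0.0631), miR-8485 replicate 1 (adjusted p = 0.0769) or miR-8485 replicate 3 (adjusted p = 0.0767).

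XIAP, an inhibitor of caspase-9 (ENSG00000101966, chromosome X, 123859724 to 123913979, plus strand), was downregulated by a small amount. It had 5.76, 5.90 and 6.02 FPKM in CTR and 5.15, 4.80 and 4.94 FPKM in miR-8485, without overlap, from 937 or more fragments in each CTR library against 850 or fewer in each of miR-8485. From 5.89 ± 0.130 to 4.96 ± 0.175 FPKM (SD, n = 3), the log2 fold change of XIAP was -0.24 (standard error 0.06, limma adjusted p = 0.00702). XIAP is longer than 87.2% of the tested genes and its canonical transcript has a GC content of 38.9%, with only 12.1% of the tested genes lower. The call was lost with the trend against gene length removed (-0.14, adjusted p = 0.0727) and with the trend against GC content removed (-0.11, adjusted p = 0.145), and it held under every other setting run, with values between -0.36 and -0.21.

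Of the 7 other genes of the inhibitor of apoptosis family, 4 were tested, with 0 higher, 1 lower and 3 not past the threshold (median -0.19). At an unadjusted p under 0.05, and in voom, 0 of the 4 were higher. BIRC2, the gene of cIAP1, fell from 14.4 ± 0.702 to 11.1 ± 0.384 FPKM (SD, n = 3), which is -0.37 as log2 fold change (limma adjusted p = 8.9e-04). BIRC5, the gene of survivin and the most abundant of the family, had 44.3 ± 2.22 FPKM in CTR and 41.6 ± 2.92 FPKM in miR-8485 (SD, n = 3), which is -0.09 as log2 fold change (limma adjusted p = 0.242), and was called lower after rescaling to TPM (-0.21, adjusted p = 0.0307), as was BIRC6. BIRC8, an XIAP-related gene, had 0 fragments in all 6 libraries. Of 6 partners and antagonists of XIAP, 4 were tested, with 2 higher and 2 lower (median -0.0017). Below 1 FPKM, SEPTIN4, one of whose isoforms (ARTS) antagonizes XIAP, was called lower in the fit of all genes above 0 (-1.11, limma adjusted p = 0.0348), with 99 to 157 fragments per CTR library and 37 to 53 per miR-8485 library. That call was lost without any 1 of the 6 libraries (adjusted p = 0.07 to 0.1) and with the replicate block (0.06). COMMD1, a copper-handling protein under XIAP control, fell by 0.71 on the log2 scale (limma adjusted p = 0.0039), with 33.6% of its exonic bases shared with a gene of the same strand. CCS, the copper chaperone of superoxide dismutase, rose by 0.48, and MAP3K7, the kinase TAK1 reached by XIAP through TAB1, fell by 0.36 (limma adjusted p = 6.3e-04 and 8.3e-04). XAF1, which antagonizes XIAP, had 0 fragments in every library, which allows at most 0.0253 FPKM in any of them.

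**Figure D3:**
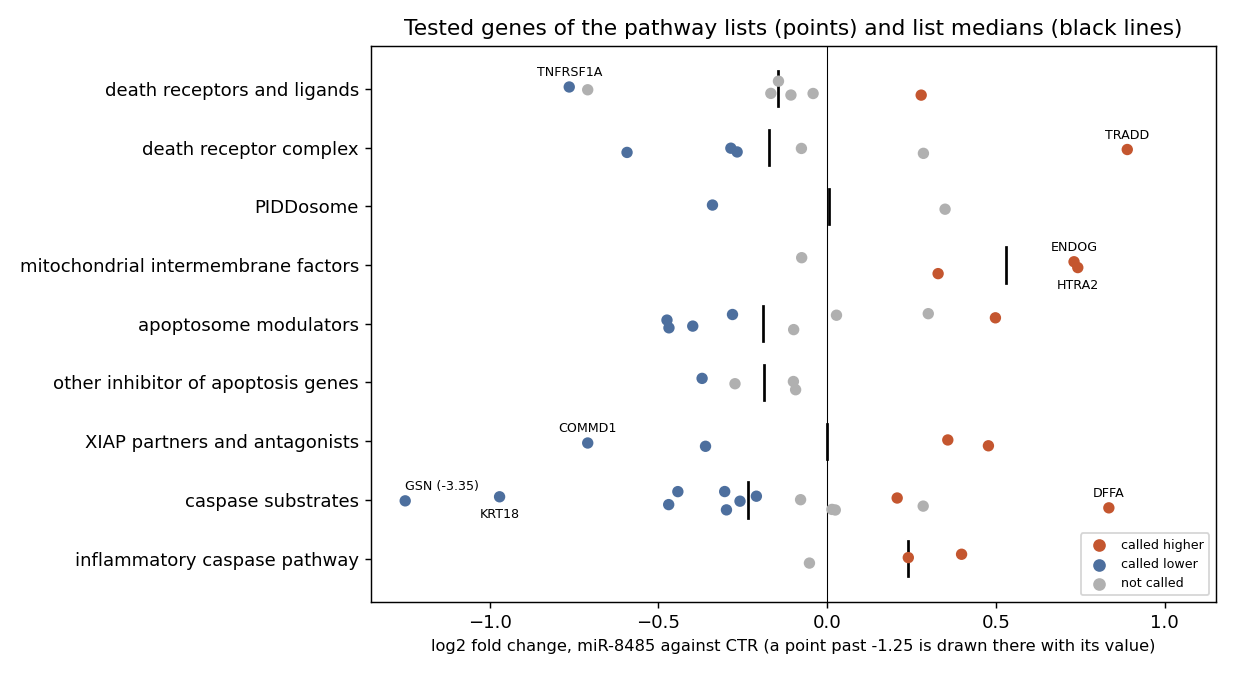
Log2 fold change of each tested gene of the 9 pathway lists that held one (horizontal axis), orange when called higher, blue when called lower and grey otherwise, with the median of each list as a black line. TRADD and DFFA stand at the upper end, while GSN, drawn at the left limit with its value, and KRT18 stand at the lower end.

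Over all 10 lists, which held 77 genes outside the group of 8, 52 genes were tested, of which 12 were higher, 20 lower and 20 not past the threshold, against 29.1% higher and 30.5% lower among all tested genes. The median log2 fold change was -0.10, against -0.0041 over all tested genes.

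Ratios within a library are free of the single scaling factor of that library. They are not free of trends against gene length or GC content, and were not recomputed with those removed. CASP9 and XIAP differ in both (5269 against 9025 bases, 52.3% against 38.9% GC). XIAP, which enters the ratios with APAF1 and CASP9, lost its call when either trend was removed. The ratio of APAF1 to XIAP was 0.487, 0.561 and 0.506 in CTR and 0.365, 0.369 and 0.401 in miR-8485, so APAF1 was lower relative to XIAP in every miR-8485 library. The difference was -0.45 on the log2 scale, with 3 libraries a group. The ratio of CASP9 to XIAP was 0.395, 0.403 and 0.425 in CTR and 0.641, 0.678 and 0.689 in miR-8485, a difference of 0.71 on the log2 scale or 1.64-fold. For both ratios the groups were without overlap, and the two-sided exact permutation test gave p = 0.1, the smallest that 3 against 3 libraries allow (0.15 adjusted over the 3 ratios). The ratio of CASP8 to CFLAR was 3.40, 3.56 and 4.57 in CTR and 3.94, 3.90 and 3.69 in miR-8485. Here the miR-8485 libraries lay within the CTR range, with a difference of 0.011 (exact permutation p = 1, adjusted 1). The absolute size of such a ratio depends on the gene length used for FPKM, which for CFLAR is 22529 bases. This divisor cancels in the difference between groups.

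**Figure D4:**
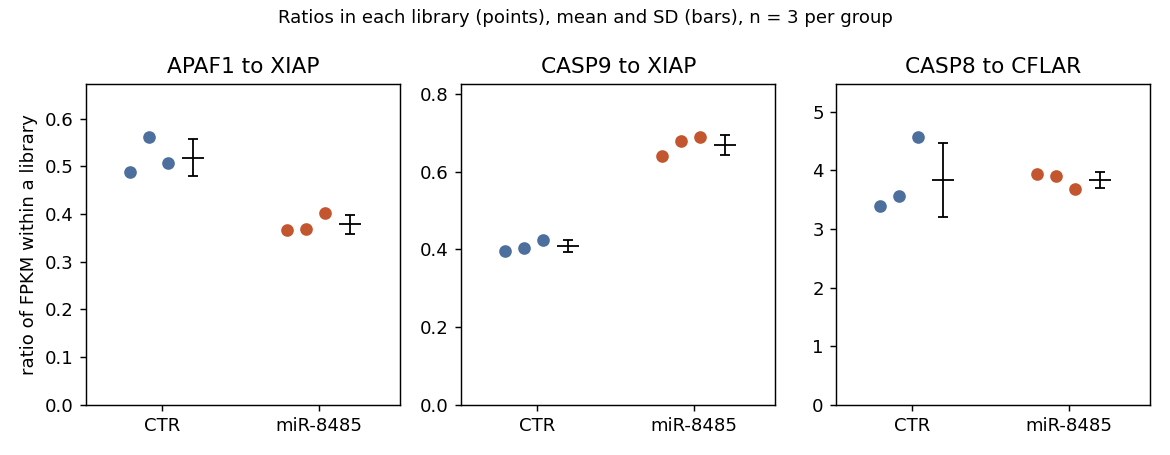
Ratio of the FPKM of 2 genes within each library (vertical axes, each from 0) for 3 gene pairs, CTR in blue and miR-8485 in orange, with the mean and SD (n = 3) as bars. CASP9 to XIAP rises from at most 0.425 to at least 0.641, APAF1 to XIAP falls from at least 0.487 to at most 0.401, and CASP8 to CFLAR overlaps.

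Ordered by mean FPKM, the CTR libraries held CASP6, CASP2, XIAP, CASP4, CASP8, APAF1, CASP9 and CASP10. The libraries of neighbours overlapped for CASP6 and CASP2, for CASP4 and CASP8, and for CASP8 and APAF1. In miR-8485 the order was CASP6, CASP2, XIAP, CASP8, CASP9, CASP4, APAF1 and CASP10, and only CASP9 and CASP4 overlapped among neighbours. APAF1 thus went from above CASP9 in every CTR library to below it in every miR-8485 library, on a scale corrected for gene length.

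Across the 6 libraries, each tested gene of the group was compared with the 58 other tested genes of the group and the lists by Pearson's r of log2(FPKM + 0.1). These points share libraries and the 2 conditions, so r is a description only. The most alike were LMNA for XIAP (r = 0.991), MAP3K7 for APAF1 (0.984), DFFA for CASP9 (0.978) and CASP6 (0.960), AIFM1 for CASP8 (0.967), ATN1, the gene of the caspase substrate atrophin-1, for CASP2 (0.939) and XIAP for CASP4 (0.922). APAF1 and XIAP were therefore closest to genes that fell, and CASP8, CASP9 and CASP6 to genes that rose.

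**Figure D5:**
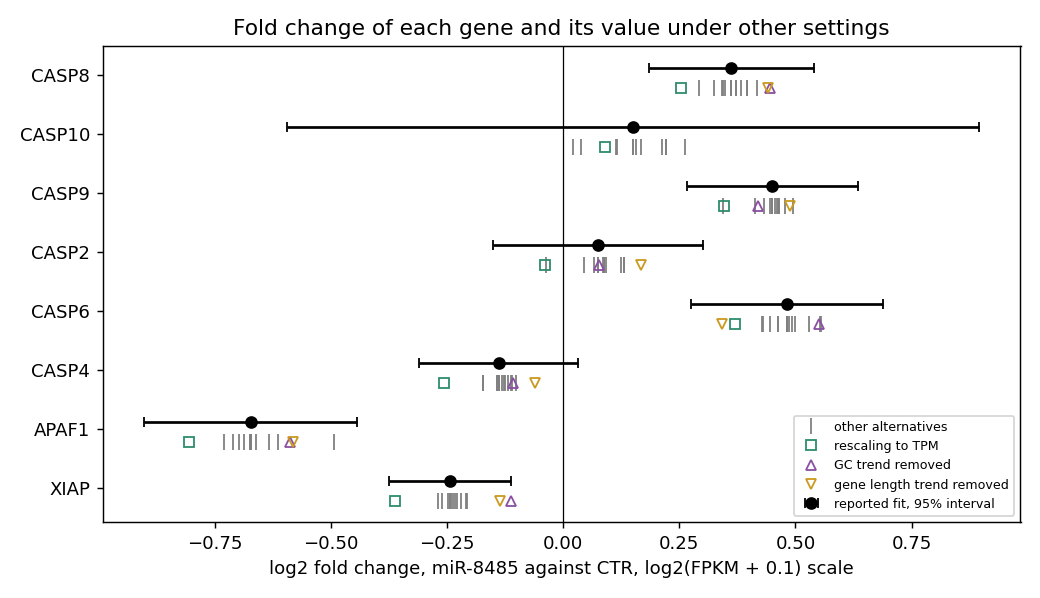
Log2 fold change of miR-8485 against CTR (horizontal axis) for the 8 genes, as reported with its 95% interval (black) and under the other settings (ticks and open symbols below it). APAF1 stays between -0.80 and -0.49, XIAP reaches -0.11 with the GC trend removed, and CASP2 crosses 0.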

How the data were processed

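RNA was sequenced from 3 CTR and 3 miR-8485 libraries of HCT116 cells, and all 6 were grouped by their labels. Per the methods, the authors trimmed reads with fastp, aligned them to hg38 with HISAT2 2.0.5, counted fragments with featureCounts 1.5.0-p3 and deposited FPKM per gene, that is counts scaled to gene length and library total. No strand setting is given in the sources used here. The share of FPKM values that were whole multiples of 1 fragment (tolerance 0.01) was 100%, which gave the fragments and the depth, and columns without a sample numbered 0. Fold changes on log2(FPKM + 0.1) were tested two-sided in limma 3.58.1 (R 4.3.3), letting the prior variance follow expression, among genes whose mean reached 1 FPKM. Genes below it were read from the same fit of all 31768 genes above 0. A log2(FPKM + 0.1) scale understates changes of low genes. Intervals are 95% intervals of that fit, and an all-zero gene was bounded at 3 fragments. Genes, 3′ UTRs and exon sharing are from GENCODE release 44, and sequences from hg38. The mimic sequence is that of the study. The genes and pathway lists were chosen with earlier results of these data known, and some items are not reported here. Named genes were all 8, up to 3 called genes of each list with the largest change among those reaching 1 FPKM, fixed partners and, for each gene, the most alike one. SEPTIN4, GBP2, NINJ1 and BIRC6 were named after their values were seen. Also named outside this rule were LMNB1, FASLG, TNFRSF10B, BIRC8, CASP1, CASP5, CASP12 and CASP14. The limma procedure was checked on simulated data. It recovered 83 of 107 planted log2 changes of 0.5 and 93 of 93 of 1.0, with 7 false calls. Far fewer genes carried a change there than were called in the data. Alternatives were other pseudocounts, filters, scalings and thresholds, removal of length or GC trends, no variance trend, voom, a replicate block and each library left out.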

Additional observations from a re-analysis of the deposited data

How the results depend on the processing

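Of 136 values of the 7 tested genes under other settings, 131 kept their direction and side of the threshold. CASP10, read from the fit of all genes above 0, is not in this count. Its 13 values under other settings all stayed above 0 and not past the threshold. The exceptions were XIAP (call lost with the length or GC trend removed), CASP4 (called after rescaling to TPM) and CASP2, which reversed to -0.039 after rescaling to TPM and ranged from -0.038 (without CTR replicate 1) to 0.13 with a library left out. Of the 8 genes, 3 were higher and 2 lower with each library left out in turn, so both counts ranged from 3 to 3 and from 2 to 2. At a mean of at least 5 FPKM, where 3 of them were tested, 1 was higher and 1 lower, and 1 was lower with the gene length trend removed and 1 with the GC trend removed. Over the pathway lists, 10 to 13 genes were higher and 15 to 21 lower with a library left out. CYCS reversed to 0.020 with the GC trend removed and was called lower after rescaling to TPM. The DIABLO identifiers, both poorly measured, ranged from -0.035 (without CTR replicate 1) to 0.22 and from -0.32 to 0.19 (without CTR replicate 3) with a library left out. Leaving out a library moved the log2 ratio of APAF1 to XIAP between -0.49 and -0.39, that of CASP9 to XIAP between 0.69 and 0.75, and that of CASP8 to CFLAR between -0.072 and 0.14, with values below 0 without CTR replicate 1, CTR replicate 2 or miR-8485 replicate 1. The cause was not tested. Deviations of same-numbered libraries correlated at 0.067, 0.034 and -0.064, so no effect shared by replicate number was seen. Such correlations cannot tell whether the libraries were prepared in pairs. With the replicate number as a block, 3 of the 8 genes were higher and 2 lower, and 3634 and 3754 over all tested genes. Depth limits CASP10 most, with at most 38 fragments per library.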
